A study of Arabidopsis thaliana with 12 samples.

Results

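Tetrapyrroles are the ring-shaped pigments and cofactors that plastids make from glutamate, and the pathway splits into branches for siroheme, heme and chlorophyll. The genes described here are CHLM, AT1G74470 and SIRB, which were chosen by name as the members of the chlorophyll and siroheme branches that had an array feature annotated with exactly 1 gene. They are 3 of 691 genes with such a feature. The choice was made with earlier results of these data known. CHLM (AT4G25080) encodes magnesium protoporphyrin IX methyltransferase, which adds a methyl group from S-adenosylmethionine to the magnesium porphyrin early in the chlorophyll branch. AT1G74470 encodes geranylgeranyl reductase, which makes the phytyl tail of chlorophyll and of tocopherol. SIRB (AT1G50170) encodes the ferrochelatase that inserts iron into sirohydrochlorin to give siroheme, the cofactor of plastid nitrite and sulfite reductases. In Arabidopsis the SIRB protein itself carries an iron-sulfur cluster.

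Total RNA of Arabidopsis thaliana was measured on 12 single-colour arrays. There were 6 arrays of the laf6 mutant, which the labels describe as missing atABC1, and 6 arrays of WT. Both groups were of the Landsberg ecotype and were dark adapted. atABC1 is also known as SUFB, a part of the machinery that builds iron-sulfur clusters in plastids. The labels give no age, tissue, growth conditions or length of the dark period, and laf6 is represented by 1 mutant line. Nothing in the labels ties arrays to separate plants; the p-values therefore reflect only array-to-array spread, part or all of which may be technical. SUFB had no feature of its own with a single gene, so its transcript was not analysed here and the mutant label could not be checked against it. None of 9 seed and root marker genes had such a feature either.

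The deposited intensities ran from 0 to about 100 on each array and have no absolute unit. Their median per array lay between 0.178 and 0.202 in laf6 and between 0.218 and 0.289 in WT. The 20 brightest features held 39.3 to 41.6% of the summed intensity of a laf6 array and 29.7 to 31.6% of that of a WT array. Values were compared after quantile normalization, which gives all arrays the same distribution. It would also remove a real difference in distribution between the groups. A difference is the mean log2 normalized intensity of laf6 minus that of WT. Each of the 3 genes had a signal above 0 on all 12 arrays.

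CHLM and SIRB rose in laf6, and AT1G74470 did not pass the test. CHLM was 2.43-fold higher in laf6 (95% interval 1.64 to 3.58), and its arrays did not overlap with those of WT after normalization. SIRB was 3.72-fold higher, with a wide interval of 1.42 to 9.74, and its call was lost under most other settings. AT1G74470 was 1.07-fold higher, with an interval of 0.896 to 1.27. The 2 genes that rose compare with 428 of 3438 rows called higher in laf6, or 12.4%, by limma with Benjamini-Hochberg adjustment over all rows at a threshold of 0.05. Another 474 rows (13.8%) were called lower, and 26.2% were called in either direction, so a call is common in this comparison.

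The methyltransferase gene of the chlorophyll branch, CHLM, had a normalized intensity of 0.673, 0.755, 0.437, 0.413, 0.620 and 0.502 on laf6 arrays 1 to 6, against 0.352, 0.297, 0.119, 0.236, 0.229 and 0.209 on WT arrays 1 to 6. All laf6 arrays were above all WT arrays, and the 2 arrays nearest to each other were laf6 replicate 4 and WT replicate 1. Such a separation with laf6 on top was seen in 8.52% of all rows. CHLM averaged 0.567 ± 0.137 in laf6 and 0.240 ± 0.0796 in WT (SD, n = 6 each). The log2 difference was 1.28 ± 0.26 (SE, limma adjusted p = 0.00309). WT replicate 3 was the dimmest array for this gene, and without it the difference was 1.09 (adjusted p = 0.00252).

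The geranylgeranyl reductase gene AT1G74470 had a normalized intensity of 4.39, 3.90, 5.05, 5.05, 4.01 and 3.29 on laf6 arrays 1 to 6, against 4.22, 3.82, 4.22, 4.22, 3.94 and 3.46 on WT arrays 1 to 6. The groups overlapped, with laf6 replicates 1, 3 and 4 above the highest WT array and laf6 replicate 6 below the lowest one. The means were 4.28 ± 0.692 in laf6 and 3.98 ± 0.307 in WT (SD, n = 6 each). The log2 difference was 0.09 ± 0.11 (SE, 95% interval -0.16 to 0.34, limma adjusted p = 0.607). It was among the most evenly measured genes, with a smaller standard error found in 11.0% of the 691 genes.

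The siroheme ferrochelatase gene SIRB had a normalized intensity of 0.618, 0.300, 0.0565, 0.275, 0.167 and 0.292 on laf6 arrays 1 to 6, against 0.0930, 0.0130, 0.0602, 0.0900, 0.0960 and 0.0850 on WT arrays 1 to 6. Of the laf6 arrays, 5 lay above the highest WT array, and replicate 3 fell among the WT values. SIRB averaged 0.285 ± 0.188 in laf6 and 0.0729 ± 0.0320 in WT (SD, n = 6 each). The log2 difference was 1.89 ± 0.63 (SE, limma adjusted p = 0.0468). The highest laf6 array was 10.9 times the lowest one, and the highest WT array 7.39 times the lowest one, compared with 1.83 and 2.97 times for CHLM. Leaving out laf6 replicate 3 gave 2.27 (adjusted p = 0.0104), whereas leaving out any other single array ended the call, with an adjusted p of up to 0.0903. Without WT replicate 2, the dimmest array for SIRB, the difference was 1.44 (adjusted p = 0.0673), and without replicates 1 and 2 of both groups it was 0.996 (0.240). The 0.0130 of WT replicate 2 lay near the floor of 0.00597, to which lower values were raised. With the floor at the 5th percentile of the positive values the difference was 1.70 (limma adjusted p = 0.0320).

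**Figure D1:**
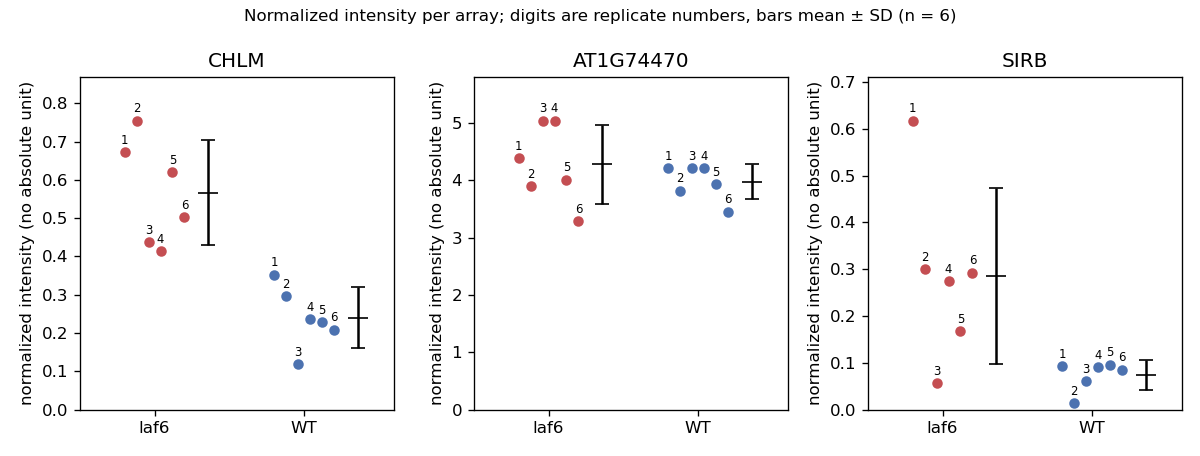
Normalized intensity (vertical axis, no absolute unit, starting at 0) of CHLM, AT1G74470 and SIRB on the 6 laf6 and 6 WT arrays. Points are arrays marked with their replicate number and bars show the mean ± SD. CHLM arrays of laf6 (0.413 to 0.755) sit above those of WT (0.119 to 0.352), AT1G74470 overlaps, and for SIRB laf6 replicate 3 (0.0565) lies within the WT range (0.0130 to 0.0960).

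The brightness rank of a feature within its own array shows where these values lie among all features. Quantile normalization sets each value from this rank, so the rank restates the normalized values and is no separate check of them. It also reflects the probe, so it is compared between arrays and not between genes. CHLM stood at the 69.4th to 83.9th percentile of an array in laf6 (median 77.5) and at the 34.6th to 64.5th in WT (median 51.8). AT1G74470 stood at the 96.1st to 97.4th percentile in laf6 and at the 96.3rd to 96.9th in WT. SIRB stood at the 24.3rd to 79.9th percentile in laf6 (median 57.8) and at the 17.1st to 30.9th in WT (median 29.4).

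**Figure D2:**
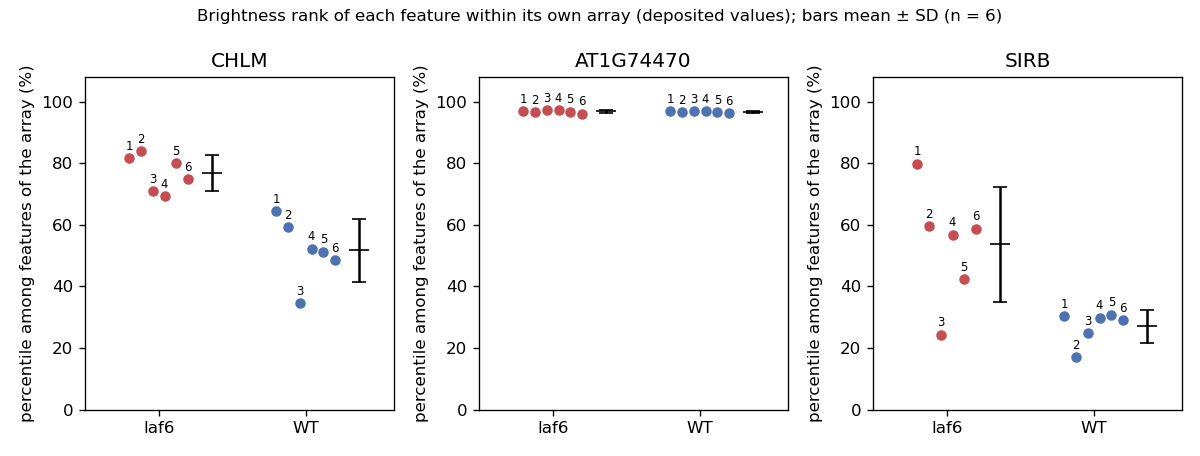
Percentile of each feature's brightness among all features of its own array (vertical axis, %), for laf6 and WT, with replicate numbers at the points and bars for mean ± SD (n = 6). CHLM sits at 69.4 to 83.9 in laf6 and 34.6 to 64.5 in WT, AT1G74470 stays between 96.1 and 97.4 on all 12 arrays, and SIRB is spread from 24.3 to 79.9 in laf6.

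The size of the differences depended on the scaling of the arrays. With the values as deposited, the median difference of all rows was -0.45 on the log2 scale, and 252 rows (7.33%) were called higher and 902 lower, against 428 higher and 474 lower after quantile normalization. On that scale CHLM had 0.480 ± 0.100 in laf6 and 0.273 ± 0.0923 in WT (deposited intensity, SD, n = 6 each), a log2 difference of 0.86 (adjusted p = 0.0169) that lay 1.32 above the median of all rows. As deposited the CHLM groups overlapped: laf6 replicates 3 (0.384) and 4 (0.371) were below WT replicate 1 (0.399). AT1G74470 turned to -0.10 as deposited (adjusted p = 0.685), which was 0.36 above the median of all rows, and reached 0.33 with 75th percentile scaling (adjusted p = 0.0671). SIRB kept a positive difference of 1.35 as deposited, but its adjusted p was 0.155, and it was 0.0841 to 0.0902 with median, 75th percentile or cyclic loess scaling.

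**Figure D3:**
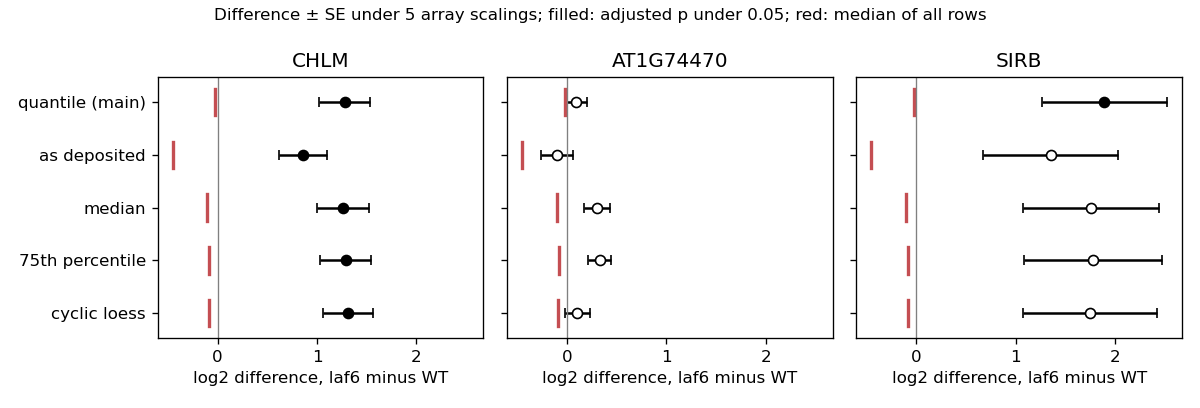
Log2 difference, laf6 minus WT (horizontal axis), of the 3 genes under 5 treatments of array scale, with SE bars. Filled points have an adjusted p under 0.05 and red ticks mark the median of all rows. CHLM is filled throughout (0.86 to 1.31), SIRB only with quantile normalization, and AT1G74470 is open throughout and runs from -0.10 to 0.33.

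Ratios of a pair of features within an array do not change with the array's scale factor, and were used to ask whether the genes changed unequally. They can still move with the shape of an array's intensity distribution, which differed between laf6 and WT. The log2 ratio of CHLM to AT1G74470 on the deposited values averaged -3.05 ± 0.48 in laf6 and -4.01 ± 0.53 in WT (SD, n = 6 each). The difference was 0.96 (95% interval 0.34 to 1.64, exact two-sided permutation p = 0.0108, adjusted p = 0.0325 over 3 pairs), with laf6 higher at 6 of 6 replicate numbers. Leaving out laf6 replicate 2 or WT replicate 3, 4, 5 or 6 raised its adjusted p to between 0.0519 and 0.0714. With quantile-normalized values the difference was 1.19 (exact permutation adjusted p = 0.0130). For SIRB to AT1G74470 the mean ratio was -4.39 ± 1.40 in laf6 and -5.84 ± 1.21 in WT, a difference of 1.45 (interval -0.23 to 3.07, exact permutation p = 0.0866, adjusted p = 0.130). That pair passed without laf6 replicate 3 (1.97, adjusted p = 0.00649) and with quantile-normalized values (1.80, adjusted p = 0.0390). The ratio of CHLM to SIRB was 1.34 ± 1.17 in laf6 and 1.83 ± 1.37 in WT, a difference of -0.49 (interval -2.17 to 1.06, exact permutation p = 0.517, adjusted p = 0.517). A difference between the changes of CHLM and SIRB was thus not detectable, and the interval spans sizeable differences in both directions.

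**Figure D4:**
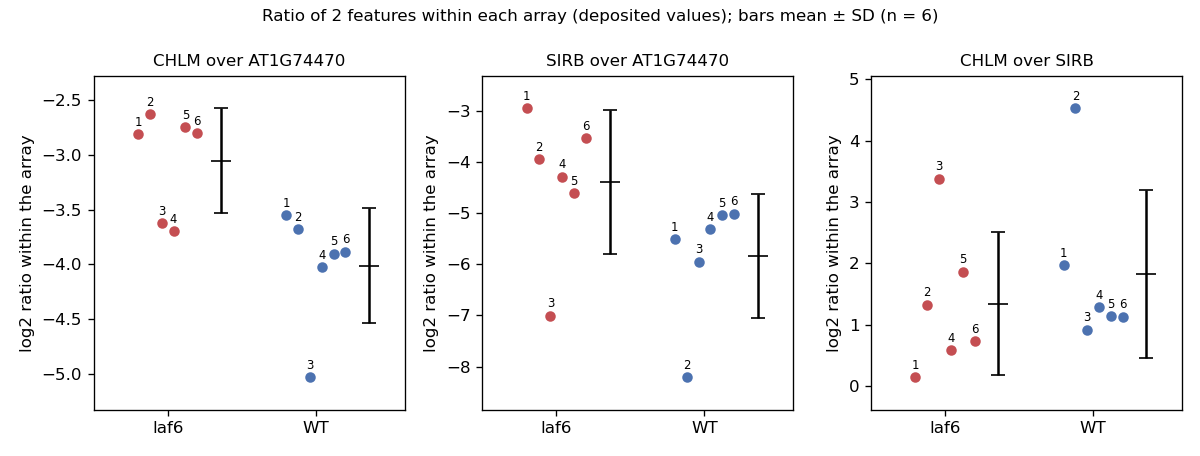
Log2 ratio of 2 features on the same array (vertical axis), for laf6 and WT, with replicate numbers at the points and bars for mean ± SD (n = 6). CHLM over AT1G74470 lies between -3.70 and -2.63 in laf6 and between -5.03 and -3.55 in WT, whereas both ratios with SIRB spread widely, with laf6 replicate 3 and WT replicate 2 farthest out in their groups.

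The deposited level of AT1G74470 followed the replicate number in both groups. It was 4.01, 3.77, 4.73, 4.81, 3.44 and 3.004 on laf6 arrays 1 to 6, and 4.67, 4.31, 4.89, 5.11, 3.45 and 3.08 on WT arrays 1 to 6. Replicates 3 and 4 were high and replicates 5 and 6 low in laf6 as in WT. As deposited, the laf6 array was the lower one at each of the 6 numbers. After normalization it was the higher one at 5 of 6. The summed intensity of whole arrays also differed between replicate numbers. On laf6 arrays 1 to 6 it was 3391.5, 3487.8, 3487.9, 3558.2, 3211.2 and 3251.3. On WT arrays 1 to 6 it was 3467.1, 3552.6, 3604.2, 3683.0, 2956.3 and 2943.3. In both groups replicate 4 had the highest sum and the highest AT1G74470 value, and replicates 5 and 6 had the lowest of each. Replicates 2 and 3 of laf6 had nearly equal sums, with AT1G74470 at 3.77 and 4.73 on them. A link between the sum and AT1G74470 was not tested. After normalization the highest WT array for AT1G74470 was 1.22 times the lowest one, against 1.66 times as deposited, and in laf6 1.54 times against 1.602. Arrays with the same number in laf6 and WT differed by 0.10 on average (absolute log2 difference of deposited intensity). Within a group, adjacent numbers (1 and 2, 3 and 4, 5 and 6) differed by 0.11 over 6 pairs, and other arrays by 0.40 over 24 pairs. For CHLM the within-group values were 0.31 for adjacent numbers and 0.55 for other pairs, and for SIRB 1.39 and 1.26. The labels do not say whether adjacent numbers mark repeat measurements. When they were averaged to 3 samples per group, CHLM (adjusted p = 0.0627) and SIRB (0.105) missed the threshold with unchanged differences.

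**Figure D5:**
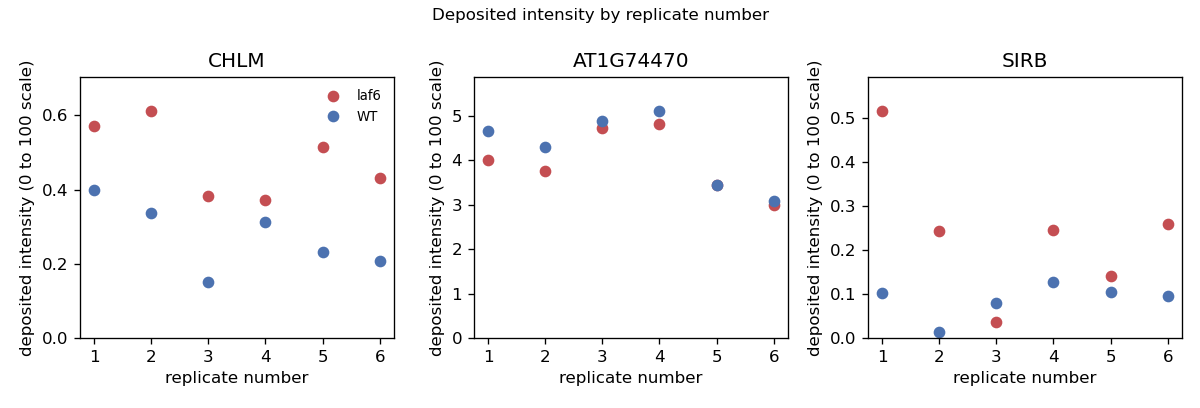
Deposited intensity (vertical axis, the 0 to 100 scale of the files, starting at 0) against replicate number for laf6 and WT. For AT1G74470 both groups are highest at numbers 3 and 4 (4.73 to 5.11) and lowest at 6 (3.004 and 3.08), whereas CHLM is higher in laf6 at 6 of 6 numbers and SIRB at 5 of 6.

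The rest of the pathway was sparsely covered. Of 68 genes in 7 lists of tetrapyrrole synthesis, its regulators, chlorophyll breakdown and the phytyl and tocopherol supply, 5 had a feature with a single gene: the 3 described above, HEMA3 and AT1G78620. Of these 5, CHLM and SIRB rose and none fell, where 12.4% of all rows were called higher and 13.8% lower. The lists were chosen with earlier results of these data known, so this count is no separate support. The call of SIRB held in 6 of 26 alternatives. The median log2 difference over the 691 genes was -0.03. No gene of the heme and bilin branch, of chlorophyll breakdown or of the 12 genes for plastid iron-sulfur assembly could be read singly. HEMA3, an isogene of glutamyl-tRNA reductase at the entry of the pathway, had a normalized intensity of 0.503 to 0.921 in laf6 (median 0.618) and 0.648 to 0.778 in WT (median 0.718). The groups overlapped, and the log2 difference was -0.12 ± 0.16 (SE, limma adjusted p = 0.6253). AT1G78620, from the phytyl and tocopherol list, had 0.194 to 1.49 in laf6 (median 1.33) and 1.04 to 1.34 in WT (median 1.09), a log2 difference of -0.43 ± 0.47 (SE, adjusted p = 0.551). Its laf6 replicates 1 (0.543) and 2 (0.194) lay below all WT arrays, while the other four stood between 1.28 and 1.49.

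Among 447 genes with a single-gene feature and a signal on all arrays, those most like each member over the 12 arrays were picked by Pearson's r of log2 normalized intensity, as a description. A high r over both groups includes the difference between them, so the r of deviations from the group means is given beside it. Closest to CHLM were CCL (r = 0.929, within groups 0.735), LHB1B2 (0.929, within groups 0.749) and AT5G11650 (0.918, within groups 0.829). LHB1B2 belongs to the light-harvesting antenna, whose proteins bind chlorophyll. All of these passed the test in the same direction as CHLM, with log2 differences of 0.93, 1.23 and 0.75. Closest to AT1G74470 were AT1G07970 (0.746, within groups 0.745), AT5G61470 (0.741, within groups 0.883) and AT3G24190 (0.722, within groups 0.778), none of which passed. Closest to SIRB were AT3G06870 (0.777, within groups 0.530), AT3G03590 (0.772, within groups 0.511) and AT5G49800 (0.751, within groups 0.470), which rose by 1.01, 0.54 and 1.03 on the log2 scale. These genes share arrays and normalization with the members, and they are the highest of many values. For CHLM and SIRB, choosing by r over both groups favours genes that differ in the same direction. Their calls are therefore no separate support. Of all rows, 12.4% were called higher in laf6.

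Set among the 691 genes, the difference of SIRB was the 22nd highest and that of CHLM the 59th. By p-value the order turned, with CHLM at place 86 and SIRB at place 172. The SD of log2 values was 0.35 in laf6 and 0.54 in WT for CHLM, 0.24 and 0.11 for AT1G74470, and 1.16 and 1.12 for SIRB, against medians of 0.58 in laf6 and 0.35 in WT over all 691 genes. SIRB was thus among the more variable genes in both groups: 69.5% of genes had a smaller SD in laf6 and 81.0% in WT.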

How the data were processed

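The authors deposited 1 intensity per feature and array on a linear scale; scanner, background correction, scaling and genome build are stated in no label or file header, so no coordinates are printed. Of 3439 features, 692 were annotated with 1 gene, 870 with several and 1877 had no entry; 690 of the 692 matched the RefSeq gene table by Entrez identifier. Values were quantile-normalized and values of 0 or below the 1st percentile of the positive ones were set to it (0.00597). Log2 values were fitted with limma 3.58.1 (lmFit, eBayes) in R 4.3.3 over 3438 rows, 1 gene's 2 features being averaged, and adjusted by Benjamini-Hochberg over all rows. The fit was tested on simulated data. Within-array ratios were compared by exact permutation of the 12 arrays. Genes named are the 3 members, genes of the fixed lists with a single-gene feature, and the 3 genes most like each member. Alternatives covered scaling, floor, filter, variance model, replicate structure and each array left out. Members and lists were chosen with earlier results of these data known. The number of arrays limits the precision.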

Additional observations from a re-analysis of the deposited data

Results flagged for a closer look

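In 2 of 28 groups of 6 arrays examined, over the members, the list genes and the genes most like a member, 1 array lay far from the other 5. Chance gives about 1 in 20. For SIRB, WT replicate 2 had a log2 normalized intensity of -6.27, with the other WT arrays between -4.05 and -3.38. For AT5G49800, laf6 replicate 3 had -2.36, with the other laf6 arrays between -1.46 and -1.20.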

How the results depend on the processing

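CHLM kept a positive difference in all 26 alternatives (0.52 to 1.40) and missed the threshold in 1, adjacent replicate numbers averaged (1.28, adjusted p = 0.0627). Its 0.52 came with the offset of 0.5 before log2, which shrinks log2 differences at such intensities. The values as deposited gave 0.86. AT1G74470 passed in none of 26 (adjusted p 0.0671 to 0.849) and turned below 0 in 1, the values as deposited (-0.10). SIRB stayed positive in all 26 but was past the threshold in 6: floor at the 5th percentile, offset of 0.5 before log2, signal on at least 6 arrays, trend and robust variance, adjustment over single-gene features (0.0488), and without laf6 replicate 3. It missed it as deposited (1.35), with median (1.75), 75th percentile (1.78) or cyclic loess scaling (1.75), array weights (1.79), the replicate block (1.89, adjusted p = 0.0721), adjacent numbers averaged (1.89, 0.105) or as a random block (1.89, 0.0859), and without replicates 1 and 2 of both groups (0.996). With single arrays left out it ran from 1.44 to 2.27. The cause was not tested.

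The number of features past the threshold, 902, was 545 with adjacent numbers averaged, and 172 of 691 when the rows counted and the adjustment were both limited to single-gene features. With single arrays left out, the difference between the changes of CHLM and AT1G74470 ran from 0.76 to 1.09, that of SIRB and AT1G74470 from 0.98 to 1.97, and that of CHLM and SIRB from -0.90 to 0.04999, turning without WT replicate 2. The first was 0.96 with adjacent numbers averaged (exact permutation adjusted p = 0.450), where the smallest p possible is 0.1 and no call could be made. It was 0.96 with the replicate block (exact permutation p = 0.03125, the smallest that design allows, and 0.0938 adjusted). The second passed with quantile-normalized values (1.80, exact permutation adjusted p = 0.0390).

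Same-numbered arrays of laf6 and WT correlated at 0.0967 to 0.184 in their deviations from the group means, and 12 of 12 arrays correlated best with their own number, a hint from the data and not the design. The replicate block moved the count of calls to 872. SIRB, at 0.0130 to 0.618, lay nearer the floor of 0.00597 than the other members.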

Other observations

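A further 4 features were annotated with several genes that include genes of the pathway lists, and are not named for that reason. Their signal cannot be assigned to any 1 of their genes. Of 2 such features from the list of regulators of tetrapyrrole synthesis, 1 rose in laf6 with a log2 difference of 1.07 ± 0.21 (SE, limma adjusted p = 0.00258) and the other had 0.43 ± 0.21 (adjusted p = 0.174). For comparison, 12.4% of all rows were called higher in laf6. Of 2 such features from the common trunk, which leads from glutamate to protoporphyrin IX, 1 had 0.62 ± 0.24 (adjusted p = 0.0911) and the other -0.03 ± 0.30 (adjusted p = 0.977).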
